A study of Mus musculus with 16 samples.

Results

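The comparison is of mouse embryonic stem cells (ESCs) labelled as Dgcr8 knockout with ESCs labelled as wild type, both kept in normal culture. Its members are 8 of the 16 libraries of the study. They were taken by their titles, 4 reading DGRC8 KO (DGCR8 KO in the genotype field) and 4 reading WT, each with not paused, and all under the treatment given as normal ESC culture conditions. The other 8 libraries are the same genotypes in mTORi culture (paused, day 2), in which the kinase mTOR is inhibited and ESCs enter a dormant state. They entered the statistical fit only to help estimate the spread, and they are set beside the main values where a difference in normal culture was not seen there or was larger there. Each sample was 800000 cells, from which RNA was purified with RNeasy columns, and 1 µg of total RNA went into poly(A) selection with a NEBNext module. Below, KO and wild type stand for the libraries so labelled. The labels do not say whether the KO cells are 1 clone, which exons are deleted, or whether replicates are separate cultures. The p-values therefore measure the spread between these libraries, which may be technical.

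Dgcr8 binds RNA and works with the nuclease Drosha. Together they form the Microprocessor, which cuts hairpins out of primary microRNA transcripts in the nucleus. Dicer then trims the hairpin to a mature microRNA of the cytoplasm, which guides Argonaute proteins to sites in the 3′ untranslated regions (3′ UTRs) of mRNAs, mostly through bases 2 to 8, the seed. Bound mRNAs are repressed and usually decay faster. In ESCs the most abundant microRNAs come from the miR-290 cluster, with the miR-302 and miR-17 families carrying related seeds, and ESCs without Dgcr8 are known to cycle slowly and to resist differentiation. The Microprocessor also cuts hairpins in the mRNA of Dgcr8 itself.

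The libraries held 88400000 to 110000000 estimated counts each. All 8 carried the ESC markers: the summed level of Pou5f1, Sox2, Nanog, Zfp42, Esrrb, Sall4, Utf1 and Dppa5a in CPM, counts scaled to library size, was 5610 to 5850 in KO and 5600 to 5740 in wild type. Of the fibroblast markers fixed for feeder cells, the sum was 38.7 to 44.1 CPM in KO and 14.3 to 19 in wild type, nearly all of it Thy1 and Pdgfrb, while Dcn, Lum and Postn were at 0.168 CPM or below in every library. Fewer genes were detected in KO, 22500 ± 56.7 (SD, n = 4) with at least 1 count, than in wild type, 23700 ± 185, and the groups did not overlap (two-sided exact permutation p = 0.0286, the smallest that 4 against 4 libraries can give). The share of counts assigned to pseudogenes was 4.67% ± 1.68 in KO and 7.79% ± 1.65 in wild type (exact permutation p = 0.0571). For some genes replicates 1 and 2 differed from 3 and 4, in wild type alone (Plk2 below) or in both genotypes (Cdkn1a below), and the labels give no batch. Deviations over genes with a log2 CPM of 3 or more partly followed the same sets in both genotypes, as given at the end. From replicates 1 and 2 alone, 6309 autosomal genes called higher and 5771 autosomal genes called lower were found, and from replicates 3 and 4 alone 6018 and 5554.

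The microRNAs themselves were not measured, since poly(A) selection captures mRNAs. Their sequences are shown because the target sites searched for in the mRNAs derive from them. They come from RefSeq (GRCm38.p6), are written 5′ to 3′, and have the seed, bases 2 to 8, in capitals. The first 3 share the seed of the miR-290 and miR-302 clusters, which pairs with AGCACTT in an mRNA. MiR-290a differs at the last base of its seed and pairs with GGCACTT. The 2 members of the miR-17 family carry the same core moved by 1 base and pair with GCACTTT. The last 3 have unrelated seeds.
miR-294-3p: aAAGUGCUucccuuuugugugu
miR-291a-3p: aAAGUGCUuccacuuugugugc
miR-302b-3p: uAAGUGCUuccauguuuuaguag
miR-290a-3p: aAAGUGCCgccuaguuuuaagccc
miR-17-5p: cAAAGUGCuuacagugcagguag
miR-93-5p: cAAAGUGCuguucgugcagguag
miR-92a-3p: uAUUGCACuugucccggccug
miR-16-5p: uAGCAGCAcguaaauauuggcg
let-7a-5p: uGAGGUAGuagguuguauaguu

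Dgcr8 RNA was higher, not lower, in the libraries labelled KO. It stood at 246, 250, 256 and 249 CPM in the 4 KO libraries and at 49.2, 48.3, 45.3 and 46.3 CPM in the 4 wild-type libraries. The groups lay far apart, a 5.29-fold difference (log2 fold change 2.40, SE 0.041, adjusted p = 5.4e-18 by edgeR's quasi-likelihood test). The gene lies on chromosome 16, and its annotated exons hold 2 microRNA genes. Its protein-coding transcript Dgcr8-201 stood at 63.5 ± 3.89 TPM, abundance scaled for length and library size, in KO and 12.4 ± 0.989 in wild type. The shorter Dgcr8-206, annotated as non-coding, stood at 56.3 ± 3.69 TPM against 2.95 ± 0.385, so it made up 41.4% of the gene's TPM in KO and 14.2% in wild type. Values are per whole gene or transcript, so they show no deletion and do not check the genotype label.

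Most genes passed the test. Of 18195 autosomal genes tested, 12413 differed at an adjusted p of 0.05 (68.2%), 6308 of them higher in KO (34.7%) and 6105 lower (33.6%). By at least 1 on the log2 scale, 1482 genes were higher (8.15%) and 2354 lower (12.9%). With a minimum count of 50 per gene in place of 10, the number lower by at least 1 was 1473. The median log2 fold change over all autosomal genes was -0.017. These shares are the background for every gene list below. The word "rose" or "fell" is used only of genes past the adjusted p of 0.05, and "called" means the same.

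Several regions differed as a whole between the genotypes. Position was read over the 8901 autosomal protein-coding genes whose log2 CPM averaged 3 or more. Of these, 76.1% were called, and the median log2 fold change was 0.09. On chromosome 1 it was 0.67 over 518 genes, of which 464 were higher and 20 lower. No other whole autosome except chromosome 14, at 0.41, had a median outside -0.03 to 0.11. Higher genes lay along the whole of chromosome 1, where 93.8% had a positive fold change.

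**Figure D1:**
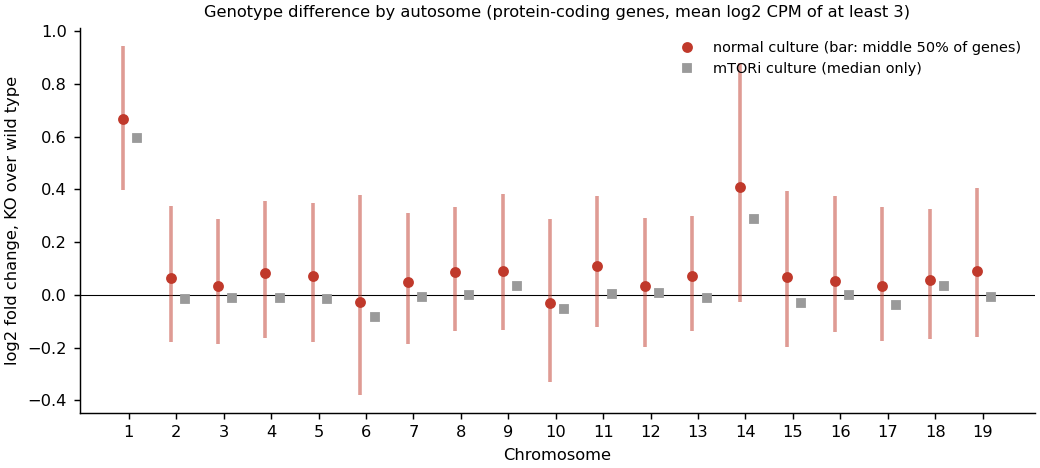
Median log2 fold change, KO over wild type, of expressed protein-coding genes on each of the 19 autosomes (horizontal axis). Red points are normal culture with bars over the middle 50% of genes, grey squares are mTORi culture. Chromosome 1 stands at 0.67 and chromosome 14 at 0.41, while the others lie near 0.

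In windows of 10 Mb, 22 of 222 had a median at least 0.4 away from the overall one, and all 22 lay on chromosomes 1, 6, 10 and 14. Other ways of reading position gave more: windows of 5 Mb gave 33 of 309, with chromosome 7 added, and all protein-coding genes tested gave 33 of 250, on 13 chromosomes. By the running median of 11 genes, shorter runs also lay on chromosome 5 (Pdgfa to Actb, 28 genes, median -0.53), chromosome 4 (Pramef12 to Zfp982, 19 genes, -0.54) and chromosome 9 (Siae to Thy1, 11 genes, 0.77). These are not counted among the shifted regions below. On chromosome 14, from 40 to 60 Mb, 98 of 106 genes were higher and 3 lower, with a median of 0.93. On chromosome 10, from 50 to 70 Mb, 53 of 58 genes were lower and 2 higher, with a median of -0.83. On chromosome 6, from 80 to 100 Mb, 69 of 79 were lower and 3 higher, also with a median of -0.83. The changes began and ended within a few genes. The chromosome 10 run reached from Atg5 to Zwint over 71 genes, and its neighbours outside were near 0, Rtn4ip1 at -0.06 and Bcr at 0.03. The chromosome 6 run covered 83 genes from Gm9008 to Rybp, between Suclg1 at -0.06 and Shq1 at 0.04. The chromosome 14 run covered 119 genes and ended at Tdh, with Mtmr9 beyond it at 0.01. The gene before it, Fam213a, was higher by 1.60, so that edge was less sharp.

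**Figure D2:**
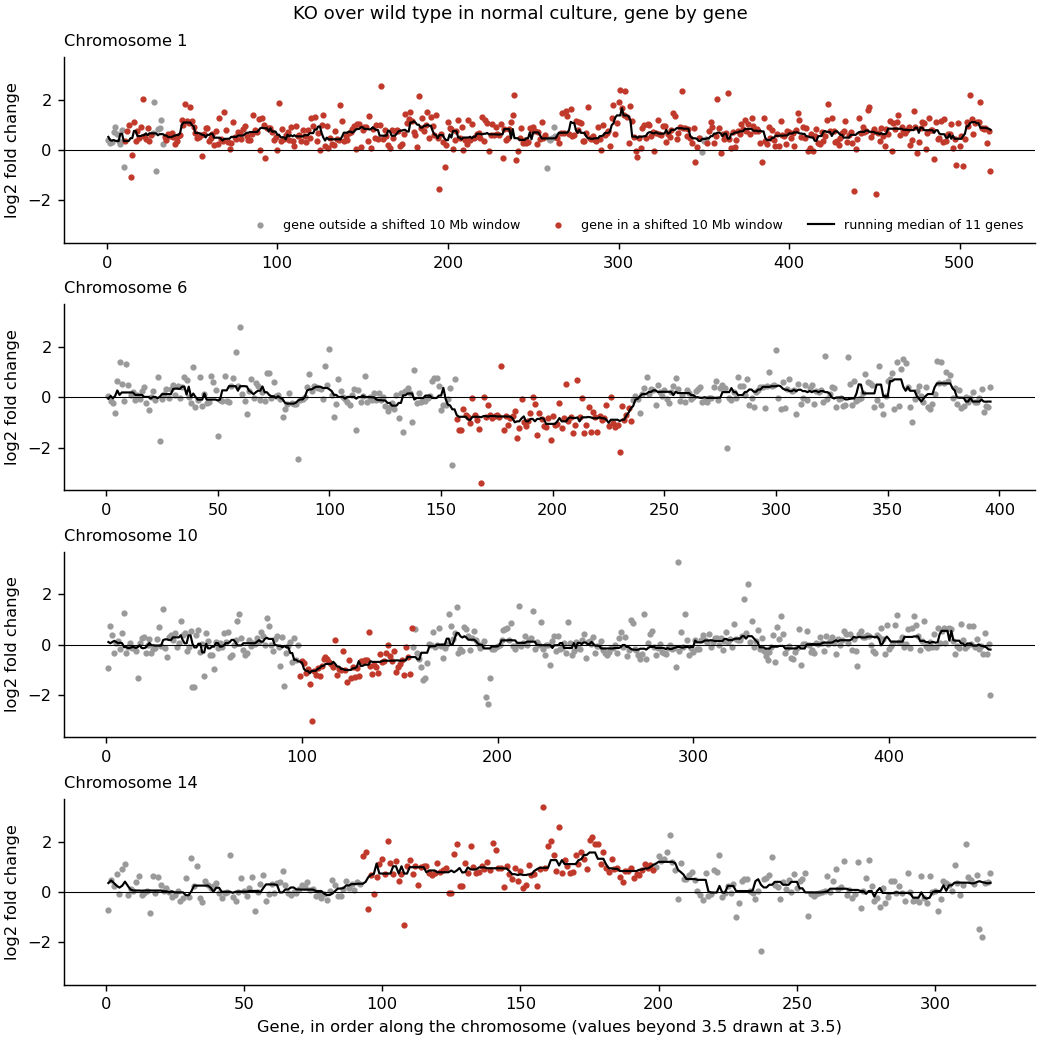
Log2 fold change of each expressed protein-coding gene in order along chromosomes 1, 6, 10 and 14 (horizontal axis: gene number, vertical axis: log2 fold change, KO over wild type), red inside the shifted 10 Mb windows and grey outside, with a running median of 11 genes as a line. The line stays above 0 along chromosome 1, steps down on chromosomes 6 and 10, and steps up on chromosome 14.

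The shifts were alike in every KO library. The median level of the chromosome 1 genes over the wild-type mean was 0.66, 0.67, 0.66 and 0.65 in the 4 KO libraries and between -0.01 and 0.01 in wild type. For the chromosome 10 region the KO values were -0.80, -0.79, -0.80 and -0.79, and for the chromosome 6 region -0.82, -0.80, -0.83 and -0.84. For the chromosome 14 region they were 0.88, 0.89, 0.94 and 0.92. The wild-type libraries lay within 0.05 of 0 in each region. In the 8 mTORi libraries, which had no part in choosing the regions, the medians were 0.59 for chromosome 1, -0.88 for chromosome 10, -0.98 for chromosome 6 and 0.86 for chromosome 14. In each region the 4 KO and 4 wild-type libraries of mTORi culture did not overlap (two-sided exact permutation p = 0.0286, the smallest possible). DNA copy number was not measured, and which of the lines departs from the other cannot be told from these libraries.

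**Figure D3:**
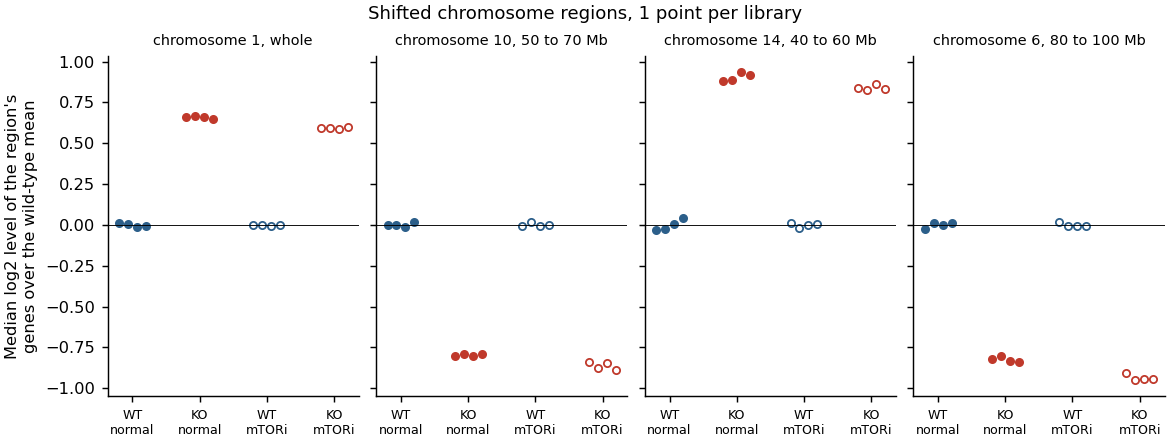
Median log2 level of the genes of 4 shifted regions over the wild-type mean of the same culture (vertical axis), 1 point per library, by genotype and culture (horizontal axis; filled: normal, open: mTORi). KO points of chromosome 1 sit at 0.65 to 0.67 in normal culture, with wild type at 0.

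The regions limit what single genes show. They held 8.81% of the autosomal genes tested and 10% of those called. Outside them 16592 genes were tested, of which 33.2% were higher and 34.1% lower in KO. The runs on chromosomes 6, 10 and 14 reach past these windows, so some of their genes are counted as outside. The window from 60 to 70 Mb on chromosome 14, for example, is counted as outside with a median of 0.474 over 47 genes. A gene named below from one of these regions is marked by its chromosome, and list counts are also given without such genes where that matters.

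More genes of the microRNA machinery were higher than lower in KO, as was also so for well-expressed genes on most autosomes. Of 17 microRNA biogenesis genes tested, Dgcr8 included, 10 rose and 4 fell, with a median of 0.25. Without the shifted regions 9 of 16 rose and 4 fell, and in mTORi culture the median of the 17 was 0.07. The members named next are among those that rose. Drosha, the nuclease partner of Dgcr8, stood at 409, 414, 440 and 438 CPM in KO and at 321, 330, 372 and 381 CPM in wild type, higher in every KO library (log2 fold change 0.28, SE 0.052, adjusted p = 0.00012, edgeR). Dicer1, which makes the second cut, stood at 174, 182, 181 and 174 CPM against 155, 146, 127 and 127. Its groups did not overlap (0.36, SE 0.054, adjusted p = 9.9e-06, edgeR). Khsrp, an RNA-binding protein that assists processing of some precursors, was higher by 0.57. Dis3l2, the exonuclease that degrades uridylated let-7 precursors, was higher by 1.05 and lies in the chromosome 1 region.

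Of 16 effectors of the silencing complex (RISC), 8 rose and 1 fell, with a median of 0.16. Ago2, the Argonaute protein with slicer activity, stood at 265, 307, 306 and 274 CPM in KO and at 199, 176, 171 and 164 CPM in wild type. All 4 KO libraries lay above all wild-type ones, a 1.62-fold difference (log2 fold change 0.70, SE 0.064, adjusted p = 2.5e-08, edgeR). Ago1 was higher by 0.61, and Tnrc6a, the GW182 protein that links Argonaute to deadenylases, by 0.68. Mov10, an RNA helicase of RISC, was the member that fell, by 0.35 on the log2 scale. From replicates 1 and 2 alone the log2 fold change of Mov10 was -0.17 and was not called.

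Reported targets of the miR-290 and miR-302 clusters were more often higher than lower. The list was drawn from studies of these microRNAs, some in Dgcr8-deficient ESCs, and with earlier results of these data known, so its direction is no independent evidence. Of its 17 genes, 11 rose and 2 fell, with a median of 0.36, beside 34.7% and 33.6% of all autosomal genes. Without the 3 members in the shifted regions, 9 of 14 rose and 2 fell, with a median of 0.32. In mTORi culture the median of the 17 genes was -0.045, and the difference between cultures was called for 9 of them. Matches to the seed are shown for the members that follow, since they differ in direction while all carry the same 7 letters. They were read from the longest annotated 3′ UTR (GENCODE M21, GRCm38), on the strand of the mRNA, with the match AGCACTT in capitals.
Cdkn1a, chr17:29100485-29100508, plus strand: taccgtgggtgtcaaAGCACTTag
Lats2, chr14:57699593-57699616, minus strand: cgcctccgtacccaaAGCACTTgc
Rhoc, chr3:104794316-104794339, plus strand: cccatattacacaccAGCACTTta
Tgfbr2, chr9:116087770-116087793, minus strand: tatatcaaaacctaaAGCACTTat
Lefty2, chr1:180897902-180897925, plus strand: ccatcacccagtttaAGCACTTac
Rbl2, chr8:91123815-91123838, plus strand: tgtatttttcaataaAGCACTTat
Casp2, chr6:42281543-42281566, plus strand: gtgatataacctagaAGCACTTgt

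Cdkn1a, the CDK inhibitor p21 that restrains entry into S phase, stood at 57.9, 52.0, 43.4 and 43.1 CPM in KO and at 41.1, 39.5, 26.5 and 27.6 CPM in wild type. The lowest KO library lay just above the highest wild-type one (log2 fold change 0.54, SE 0.136, adjusted p = 0.0024, edgeR). Lats2, a kinase of the Hippo pathway in the chromosome 14 region, stood at 4.89, 5.43, 6.88 and 6.28 CPM against 2.69, 2.54, 3.92 and 3.15. Its difference was 0.94 (SE 0.128, adjusted p = 3.8e-06, edgeR), beside a median of 0.93 for its region. Rhoc, a small GTPase of the cytoskeleton, was even across libraries, with 43.7, 42.0, 43.9 and 43.1 CPM in KO and 22.0, 20.6, 21.9 and 22.4 in wild type. This 1.99-fold difference (0.99, SE 0.038, adjusted p = 1.2e-13, edgeR) was turned around in mTORi culture, at -0.47.

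Tgfbr2, the type II receptor of TGF-beta, was low in both genotypes but rose 5.30-fold, with 2.77, 3.73, 3.67 and 3.42 CPM in KO and 0.502, 0.647, 0.796 and 0.615 CPM in wild type. No library of either group came near the other (log2 fold change 2.41, SE 0.145, adjusted p = 5.1e-11, edgeR). Lefty2, an antagonist of Nodal on chromosome 1, was at 77.4, 66.9, 48.7 and 79.8 CPM against 19.3, 20.8, 26.8 and 26.9, and higher by 1.54. Txnip, a regulator of glucose uptake with 2 matches, was higher by 0.36. Other members did not rise. Rbl2, a member of the retinoblastoma family, stood at 8.36, 9.20, 8.07 and 8.07 CPM in KO and at 12.8, 11.4, 7.50 and 6.99 CPM in wild type, with the KO values inside the wild-type range (-0.20, SE 0.144, adjusted p = 0.23, edgeR). The log2 fold change of Rbl2 was -0.46 and called from replicates 1 and 2 alone, and 0.15 and not called from replicates 3 and 4 alone. Casp2, an apoptotic caspase, fell slightly, from 25.1 ± 1.40 to 21.0 ± 0.497 CPM (-0.26, adjusted p = 4.4e-05, edgeR). Dkk1, a secreted Wnt antagonist without this match, fell by 2.44 on the log2 scale at a level of 1.24 CPM in wild type.

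Other microRNA families gave mixed lists. Of 16 reported targets of the miR-17/92, miR-25 and miR-15/16 families, 7 rose and 1 fell, and without the shifted regions 5 of 14 rose and 1 fell, with a median of 0.05. E2f1, an activator of S-phase genes whose 3′ UTR holds 2 matches to GCACTTT, stood at 81.9, 77.3, 74.7 and 74.9 CPM in KO and at 36.5, 36.4, 44.4 and 44.7 CPM in wild type. Its rise of 0.93 (SE 0.062, adjusted p = 2.2e-10, edgeR) left a wide gap between the groups. Itga5, the fibronectin receptor subunit, rose by 0.87. The member that fell was Cdkn1c, described below. One of the matches in E2f1 is shown with GCACTTT in capitals.
E2f1, chr2:154560210-154560233, minus strand: gggtgggctctaactGCACTTTtg

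Of 21 reported let-7 targets, 5 rose and 10 fell. Let-7 is a family of differentiated cells that ESCs hold low through Lin28. Lin28a, which blocks let-7 maturation, fell from 532 ± 44.0 to 402 ± 28.8 CPM (-0.40, adjusted p = 0.00017, edgeR), and its relative Lin28b, within the chromosome 10 run though outside its 2 windows, fell by 0.61. Mycn fell by 1.02 and Myc by 0.40, and the call of Myc was lost in 4 of the 8 fits that left out 1 library. Igf2bp3, an RNA-binding protein of early development, went the other way, from 30.9 ± 3.94 to 116 ± 2.88 CPM, a rise of 1.91. Arid3a rose by 1.34.

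Across the transcriptome, genes with matches to several of the seeds were higher somewhat more often than genes without. A 3′ UTR of at least 50 bases was found for 15995 tested genes, of which 38.3% were higher and 32.6% lower, with a median of 0.02. AGCACTT was present in 17.6% of these 3′ UTRs and GCACTTT in 14.1%. The letters overlap, so that AGCACTTT holds both, and only the mRNA strand was searched. The share of higher genes was 37.6% without AGCACTT, 40.9% with 1 match and 44.6% with 2 or more. For GCACTTT it was 37.0%, 45.7% and 47.0%. The lower shares were 33.3%, 30.1% and 26.3% for AGCACTT, and 33.4%, 28.5% and 26.2% for GCACTTT. Outside the shifted regions the higher shares were 36.0%, 38.8% and 41.4% for AGCACTT, and 35.5%, 43.7% and 44.4% for GCACTTT. Levels were also higher with more AGCACTT matches, at a median log2 CPM of 3.48, 3.96 and 4.32. They were 3.49, 4.09 and 4.24 for GCACTTT, and 3.32, 4.06 and 4.48 for the match of miR-16. The part of these levels was not tested. Where an A followed a single GCACTTT, 51.3% of 632 genes were higher and the median was 0.17. With 2 or more such sites 46.7% of 30 genes were higher and 33.3% lower. For AGCACTT followed by an A, 38.1% of 536 genes with 1 site were higher, and 38.3% of genes without. The other seeds shown above gave, for 1 site with an A, 48.8% (miR-92a), 42.2% (miR-16), 40.7% (let-7) and 38.6% (miR-290a). Genes with AGCACTT but not GCACTTT had 37.7% higher and a median of 0.02, close to genes with neither, at 36.9% and 0.00. Genes with GCACTTT alone had 45.2% and 0.10 (1001 genes), and with both 46.5% and 0.12 (1248 genes).

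Length of the 3′ UTR differed between these groups, so the shares were also read within 3 groups of length. In the shortest group, 33.3% of genes were higher without GCACTTT and 36.7% with 1 match. In the middle group of length the shares were 39.6% and 48.2%. In the longest group they were 38.9% and 45.8%. For AGCACTT the shares in the same groups were 33.5% and 29.9%, 40.4% and 41.5%, and 39.8% and 42.0%. For miR-16, whose match TGCTGCT was in 25.7% of 3′ UTRs, the share over all lengths was 36.7%, 41.6% and 45.5% with 0, 1 and 2 or more matches. In the 3 groups of length, the shares without and with 1 match were 33.3% and 35.9%, 39.8% and 43.1%, and 38.1% and 42.1%. For let-7 (CTACCTC, in 11.9%) the shares over all lengths were 37.9%, 40.7% and 45.3%, although let-7 is held low in ESCs. With 2 or more let-7 matches 34.6% of genes were lower, and without a match 32.9%. Outside the shifted regions 42.2% of genes with 2 or more were higher and 37.0% lower. In the groups of length, the higher shares without and with 1 let-7 match were 33.5% and 33.1%, 40.1% and 44.2%, and 40.7% and 40.1%. For miR-92a (GTGCAAT, in 7.74%) the shares over all lengths were 38.0%, 41.1% and 44.1%. For miR-290a (GGCACTT, in 9.8%) they were 37.6%, 44.7% and 43.3%. In the groups of length, the shares without and with 1 miR-92a match were 33.4% and 36.1%, 40.4% and 43.3%, and 40.8% and 40.9%. Those of miR-290a were 33.2% and 43.6%, 40.2% and 44.2%, and 39.9% and 45.0%. Over all lengths, matches for miR-26a, in 11.3%, showed 38.2%, 39.3% and 35.5%. Matches for miR-9, in 15.5% of 3′ UTRs, showed 38.2%, 38.3% and 39.1%, and those for miR-200b, also in 15.5%, 38.1%, 40.0% and 36.0%. Genes are not replicates, and these shares describe the 8 libraries without a test. MiR-124-3p, miR-122-5p and miR-1a-3p were not searched.

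Primary microRNAs often lie inside protein-coding genes, and the Microprocessor cuts them from the host transcript. Of 213 tested hosts with a same-strand microRNA gene in an exon, 102 rose (47.9%) and 54 fell (25.4%). Of 517 with one only in introns, 235 rose (45.5%) and 133 fell (25.7%). Among all 16316 autosomal protein-coding genes tested, 37.9% were higher and 32.9% lower. These groups were not matched for expression level or gene length, and well-expressed genes were more often higher than lower on most autosomes. Whether hosts differ from other genes of like level was not tested. Mcm7, a replicative helicase subunit that hosts miR-106b, miR-93 and miR-25, stood at 734, 716, 723 and 726 CPM in KO and at 526, 529, 550 and 560 CPM in wild type. All KO libraries lay above all wild-type ones (log2 fold change 0.42, SE 0.033, adjusted p = 2.1e-09, edgeR).

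Other hosts fell steeply. Sfmbt2, a Polycomb-related gene that is imprinted in mouse and carries 119 annotated microRNA genes in its introns, stood at 5.73, 6.40, 7.35 and 7.14 CPM in KO and at 56.9, 60.3, 78.4 and 75 CPM in wild type. Every KO library was far below, a 10.2-fold difference (log2 fold change -3.35, SE 0.152, adjusted p = 1.8e-11, edgeR). Maml2, a coactivator of Notch signalling with an annotated microRNA gene in an exon, fell by 4.85 on the log2 scale, from 9.53 ± 1.16 to 0.331 ± 0.156 CPM.

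Where log2 CPM averaged 3 or more, the largest rises included Pck2, the mitochondrial form of phosphoenolpyruvate carboxykinase. It stood at 282, 319, 304 and 261 CPM in KO and at 32.8, 30.0, 25.3 and 24.6 CPM in wild type, a 10.3-fold difference (log2 fold change 3.37, SE 0.111, adjusted p = 4.9e-13, edgeR). Pck2 lies in the chromosome 14 region, whose median was 0.93. Aldh1l2, a mitochondrial folate enzyme on chromosome 10 outside the shifted region, rose from 3.93, 3.44, 1.83 and 1.75 CPM to 23.3, 33.6, 28.3 and 23.5. Its wild-type replicates 1 and 2 lay above replicates 3 and 4, and all 4 were far below KO (3.30, SE 0.238, adjusted p = 1.1e-08, edgeR). Stra8, a retinoic acid-induced gene of meiotic entry, rose from 9.88 ± 1.36 to 69.1 ± 12.1 CPM, and Rec8, a meiotic cohesin in the chromosome 14 region, from 3.57 ± 0.394 to 21.3 ± 2.25 CPM. Other large rises were Mef2b, a transcription factor, by 3.17, the secreted glycoprotein gene Stc2 by 2.81, the adhesion receptor gene Adgrd1 by 2.77, and Tns1, an adaptor of focal adhesions on chromosome 1, by 2.55.

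The largest falls were in genes of varied function. Slc4a5, a bicarbonate transporter in the chromosome 6 region, stood at 2.98, 2.11, 2.45 and 3.03 CPM in KO and at 26.0, 24.1, 31.9 and 31.4 CPM in wild type (log2 fold change -3.43, SE 0.176, adjusted p = 5.5e-11, edgeR). Cdkn1c, the imprinted CDK inhibitor p57, stood at 12.8, 9.42, 12.4 and 15.3 CPM against 130, 150, 110 and 108, with no KO library near any wild-type one (-3.32, SE 0.191, adjusted p = 1e-09, edgeR). Efnb2, the ligand ephrin-B2, fell from 26.8 ± 2.21 to 2.76 ± 0.818 CPM. Gja1, the gap junction protein connexin 43, fell from 137 ± 7.11 to 16.6 ± 2.23 CPM, and lies in the chromosome 10 region. The giant sarcomere protein gene Ttn fell by 2.96, the nucleoside transporter gene Slc28a1 by 2.83, and the log2 fold change of the autophagy receptor gene Calcoco2 was -2.86. Its wild-type values were 78.8, 78.3, 137 and 144 CPM, with replicates 1 and 2 the lower. Eif4g3, a translation initiation scaffold, fell by 1.67, from 25 ± 2.09 to 7.84 ± 0.596 CPM.

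**Figure D4:**
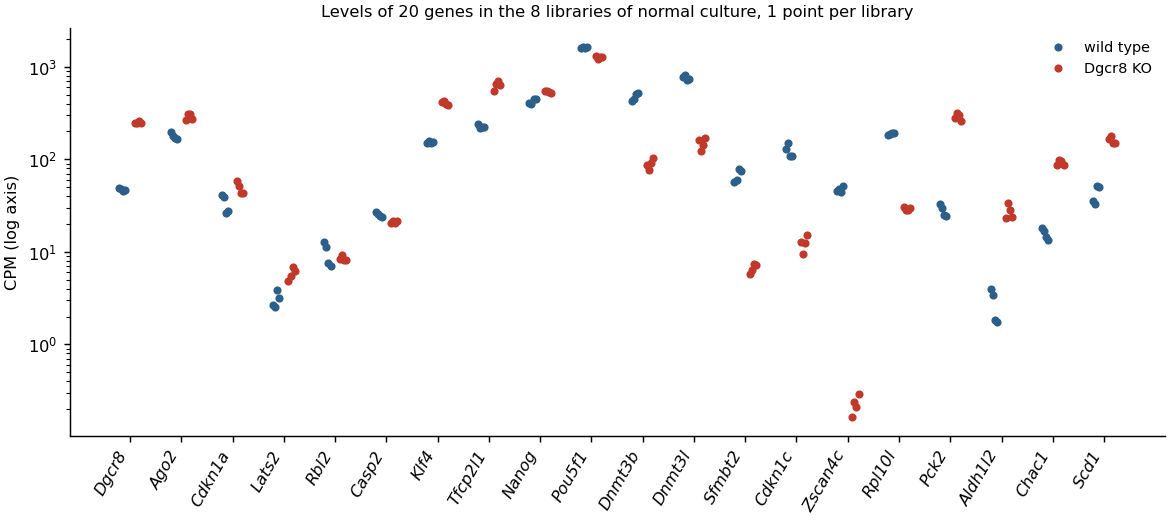
CPM on a log axis of 20 genes (horizontal axis) in the 8 libraries of normal culture, 1 point per library, blue for wild type and red for KO. Dgcr8, Pck2 and Chac1 lie higher in KO, Sfmbt2, Cdkn1c and Zscan4c far lower, and the points of Rbl2 overlap.

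Naive pluripotency genes were divided. Of 19 tested, 10 rose and 6 fell, with a median of 0.30 that went to 0.00 without the 4 members in shifted regions. Klf4, a naive-state transcription factor, stood at 418, 428, 398 and 385 CPM in KO and at 151, 158, 149 and 154 CPM in wild type. Both groups were tight, and the rise was 1.41 (SE 0.037, adjusted p = 1.4e-15, edgeR). Tfcp2l1, a LIF-responsive naive factor on chromosome 1, rose by 1.49, Tbx3 by 1.00 (1.005 on the log2 scale, from 148 ± 10.8 to 297 ± 13.2 CPM), and Esrrb by 0.50. The core factors moved little: Nanog rose by 0.35 and Sox2 by 0.36, while Pou5f1 fell by 0.34, from 1610 ± 35.4 to 1270 ± 36.9 CPM. Dppa3, a maternal factor that protects imprints from demethylation, stood at 0.416, 0.270, 0.299 and 0.633 CPM in KO and at 6.43, 5.50, 10.1 and 10.2 CPM in wild type, a fall of 4.32 (SE 0.263, adjusted p = 1.7e-10, edgeR). Fbxo15, an ESC marker under Oct4 control, fell by 0.97.

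Genes of the formative and primed states were mostly lower. Of 17 tested, 11 fell and 2 rose, with a median of -1.20, and without the shifted regions 10 of 14 fell. Dnmt3b, the de novo DNA methyltransferase induced on leaving the naive state, stood at 86.7, 77.0, 91.7 and 102 CPM in KO and at 428, 448, 511 and 522 CPM in wild type. The 5.33-fold fall separated the groups widely (log2 fold change -2.42, SE 0.139, adjusted p = 8.6e-10, edgeR). Zic2, a zinc finger factor of epiblast and neural plate, fell by 1.79, Lef1, a Wnt effector, by 1.72, and Nodal, the ligand of the primed state in the chromosome 10 region, by 1.29.

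Lineage genes were mostly lower in KO for endoderm and trophoblast, and divided for neuroectoderm and mesoderm. Of 12 endoderm genes 11 fell and 1 rose, with a median of -1.52. Cubn, an endocytic receptor of visceral endoderm, was at 2.96, 2.00, 1.66 and 3.06 CPM in KO and at 28.5, 26.5, 11.2 and 12.7 CPM in wild type, with wild-type replicates 1 and 2 above 3 and 4. Gata6, a master factor of primitive endoderm, fell by 2.07, and Dab2, an endocytic adaptor, by 1.93. Sox7 was the one that rose, by 0.46, and from replicates 1 and 2 alone the log2 fold change of Sox7 was 0.26 and not called. Of 14 trophoblast genes, 8 fell and 2 rose. Gata3 fell from 5.34 ± 0.451 to 0.493 ± 0.102 CPM and Tfap2c from 48.6 ± 0.723 to 17.4 ± 1.37 CPM. Of 11 neuroectoderm genes 5 fell and 3 rose, and of 11 mesoderm genes 4 fell and 3 rose. Pax6, an eye and neural factor, fell by 3.12. In bulk RNA, fewer cells of a type and less RNA per cell cannot be told apart.

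Very large falls were in genes of the 2-cell-like state, a rare, transient state in ESC cultures that resembles the embryo after genome activation. All 14 genes tested fell, with a median of -7.44, or -7.05 when genes at 0 counts in KO are set at their bound. Genes near 0 in KO passed the filter on low counts only through wild type and so had to differ, which makes their number no support. Zscan4c stood at 0.164, 0.241, 0.209 and 0.290 CPM in KO and at 46.0, 47.2, 44.8 and 51.8 CPM in wild type, 208-fold lower. Zscan4f was 182-fold lower. The Zscan4 copies are near identical and share reads, so the split among them is uncertain. Tcstv1 had no count in any KO library and 81.6 over the 4 wild-type libraries, at least 28-fold lower, with a floor of 3 counts over the KO group. Zfp352 had 3.0 counts in KO and 591.9 in wild type, a ratio of 203 (95% interval 69.1 to 987, counting error only). Usp17la, a deubiquitinase, fell by 3.48. Eif1a, a broadly expressed translation factor with related copies in this state, fell by 0.17.

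Of 15 tested genes on a list of germline genes that DNA methylation silences in somatic cells, 10 fell and none rose. Without the shifted regions it was 10 of 14. The meiotic genes Stra8 and Rec8, which rose as given above, are not on this list. Rpl10l, a testis copy of a ribosomal protein gene, stood at 30.7, 28.2, 28.0 and 30.1 CPM in KO and at 181, 189, 191 and 193 CPM in wild type, a fall of 2.69 (SE 0.058, adjusted p = 1.4e-16, edgeR). Hormad1, a meiotic chromosome axis protein, fell by 3.19 and Dazl, a germ cell RNA-binding protein, by 2.23.

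In the DNA methylation machinery 7 of 15 genes fell and 4 rose. Dnmt3l, the cofactor of de novo methylation, stood at 160, 122, 143 and 170 CPM in KO and at 769, 811, 715 and 739 CPM in wild type (-2.35, SE 0.094, adjusted p = 2.5e-12, edgeR). Dnmt3a did not pass the test, at 193 ± 7.75 against 180 ± 7.98 CPM (0.10, adjusted p = 0.18, edgeR). Uhrf1, which directs maintenance methylation, rose by 0.38, and Trim28, a corepressor at imprints and retroelements, fell by 0.65. Imprinted genes were often lower: of 25, 17 fell and 6 rose, with a median of -0.80. Igf2, a fetal growth factor, fell from 11.2 ± 1.67 to 1.12 ± 0.185 CPM and Plagl1, a zinc finger gene of the imprinted network, by 5.08. Grb10, a growth-restraining adaptor, rose by 1.67 and Rtl1, a retrotransposon-derived gene of placenta, by 2.06.

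**Figure D5:**
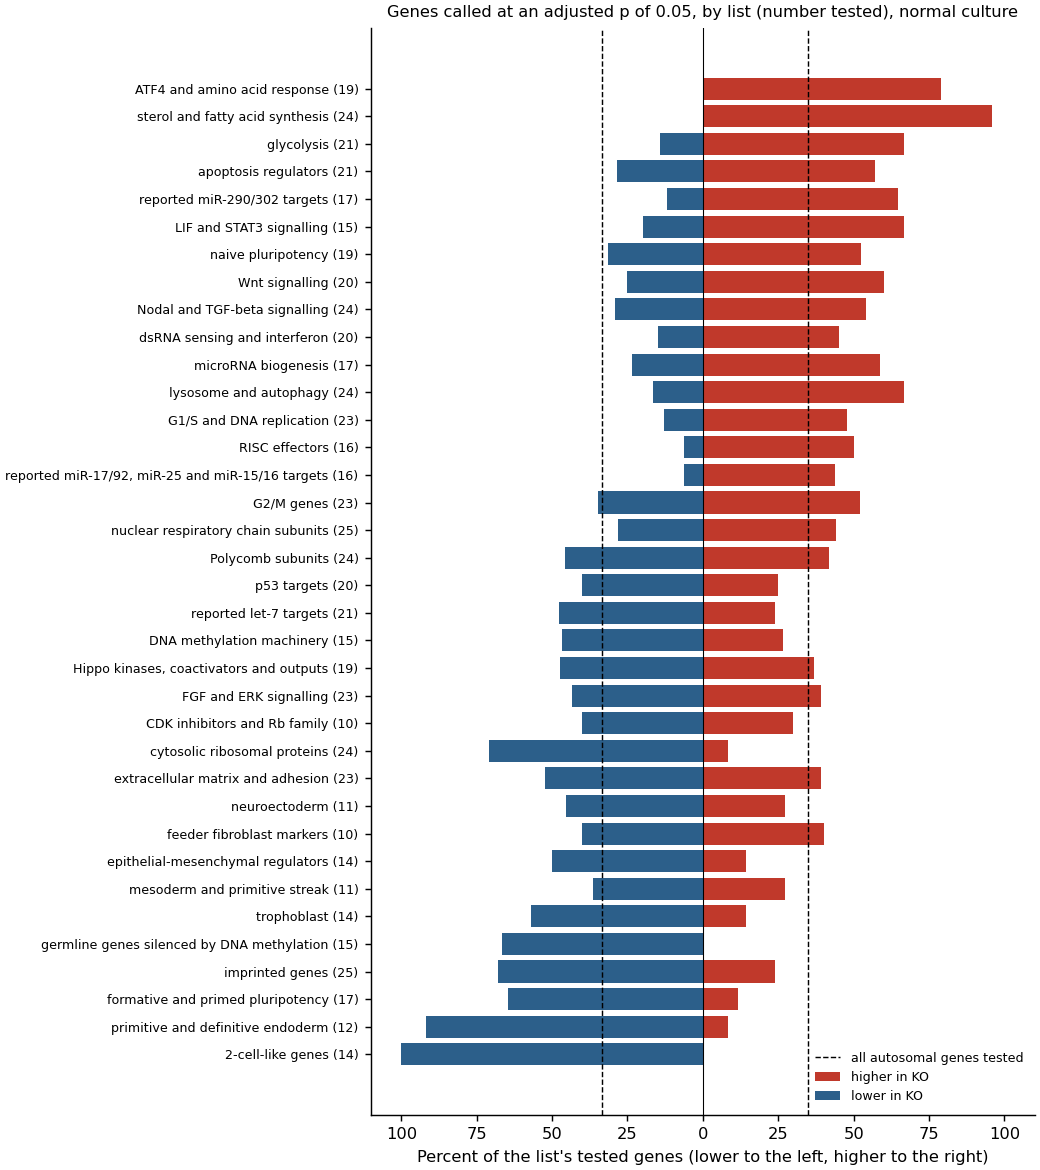
Percent of the tested genes of each of 36 lists that were lower (blue, to the left) or higher (red, to the right) in KO in normal culture, with the number tested in brackets and dashed lines at the shares of all autosomal genes, 33.6% and 34.7%. Sterol synthesis (95.8% higher) and ATF4 genes (78.9% higher) lie at the top, and 2-cell-like genes (100% lower) at the bottom.

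Amino acid response genes, most of them induced by the transcription factor ATF4 when amino acids are short, were higher. Of 19 tested, 15 rose and none fell, with a median of 1.14. Chac1, which degrades glutathione, stood at 86.5, 98.9, 95.5 and 85.8 CPM in KO and at 17.9, 17.0, 14.5 and 13.3 CPM in wild type. The groups lay far apart (2.55, SE 0.105, adjusted p = 3.1e-12, edgeR). Trib3, a pseudokinase that feeds back on ATF4, rose by 2.11, Phgdh, the first enzyme of serine synthesis, by 1.53, Asns, asparagine synthetase, by 1.33, and Nupr1, a stress-induced chromatin protein, by 1.67. Atf4 mRNA itself stood at 242 ± 18.7 CPM in KO and 237 ± 21.8 in wild type and was not called (0.03, adjusted p = 0.76, edgeR). ATF4 activity is set largely by translation, which these data do not measure.

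Promoters of these genes were read for TGATGNAA, the letters of the site that ATF4 binds with C/EBP partners, on both strands. RefSeq promoters (GRCm38.p6, 250 bases before to 50 after the start) were found for 17 of the list's genes, and 6 had a match (35.3%): Chac1, Trib3, Asns, Slc7a11, Nupr1 and Atf3. Of all 26994 genes with a promoter entry 4.51% had one. The list was made of genes known for this response, so its higher share is no independent evidence. The promoters of Chac1 and Asns are printed because they are strongly changed members with the match, which is in capitals. In Chac1 it reads on the strand opposite to the one printed, and in Asns on the printed strand. A match is letters only, and binding was not measured.
Chac1, chr2:119350992-119351291, plus strand: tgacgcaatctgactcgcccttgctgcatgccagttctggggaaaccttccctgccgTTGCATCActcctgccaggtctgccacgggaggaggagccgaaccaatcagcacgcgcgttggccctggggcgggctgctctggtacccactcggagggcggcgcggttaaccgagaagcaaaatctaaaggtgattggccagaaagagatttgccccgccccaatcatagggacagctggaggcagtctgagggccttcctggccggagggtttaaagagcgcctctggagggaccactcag
Asns, chr6:7693160-7693459, minus strand: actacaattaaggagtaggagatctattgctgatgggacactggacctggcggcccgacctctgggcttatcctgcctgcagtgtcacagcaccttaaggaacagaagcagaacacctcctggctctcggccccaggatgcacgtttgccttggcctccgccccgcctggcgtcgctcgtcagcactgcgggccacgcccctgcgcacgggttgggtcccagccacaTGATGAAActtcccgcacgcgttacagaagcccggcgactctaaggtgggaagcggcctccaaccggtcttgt

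Lipid synthesis was higher almost throughout. Of 24 sterol and fatty acid genes 23 rose and none fell, with a median of 0.77, and none lies in a shifted region. Scd1, which desaturates stearate, stood at 164, 177, 150 and 152 CPM in KO and at 35.6, 33.2, 52.0 and 50.1 CPM in wild type (1.91, SE 0.120, adjusted p = 1.2e-09, edgeR). Hmgcs1, an enzyme of the mevalonate pathway, rose by 0.46. Acaca, acetyl-CoA carboxylase, was the member not called (0.07, adjusted p = 0.18, edgeR). The sterol element TCACNCCAC, a motif of SREBP promoters, searched on both strands, was found in 1 of 16 genes of this list with a promoter entry, Hmgcs1 (6.25%), and in 1.44% of all genes.

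Of 21 glycolysis genes, 14 rose and 3 fell, with a median of 0.50. Pdk1, a kinase that inhibits pyruvate dehydrogenase, stood at 282, 278, 272 and 275 CPM in KO and at 103, 103, 116 and 118 CPM in wild type, a 2.51-fold rise (1.33, SE 0.045, adjusted p = 2.7e-14, edgeR). Ldhb, a lactate dehydrogenase subunit, rose by 1.45. Hk2, a hexokinase in the chromosome 6 region, fell by 0.48. Cytosolic ribosomal protein genes were lower by a little: 17 of 24 fell and 2 rose, with a median of -0.12. Rpl8 stood at 1850 ± 73.5 CPM in KO and 2120 ± 54.5 in wild type. Of 24 lysosome and autophagy genes 16 rose and 4 fell; Wipi1, a protein of the forming autophagosome, rose from 2.61 ± 0.281 to 9.42 ± 1.64 CPM.

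Cell cycle genes did not move as a block. Of 23 G1/S and replication genes, 11 rose and 3 fell, with a median of 0.16. Of the helicase genes of replication, Mcm6 on chromosome 1 rose by 0.92 and Mcm2 in the chromosome 6 region fell by 0.96. Cdk1, the mitotic kinase in the chromosome 10 region, stood at 90.7, 90.7, 89.2 and 90.6 CPM in KO and at 199, 197, 206 and 214 CPM in wild type, a 2.26-fold fall (-1.18, SE 0.037, adjusted p = 1.6e-14, edgeR). Ccne1, cyclin E1, was at 303 ± 10.8 CPM in KO and 271 ± 37.8 in wild type and was not called (0.16, adjusted p = 0.067, edgeR), nor was Ccnd2, cyclin D2 (-0.05, adjusted p = 0.76, edgeR). Of 10 CDK inhibitors and Rb family genes, 3 rose and 4 fell. Cdkn1b, p27, rose from 17.7 ± 1.31 to 46.3 ± 3.35 CPM, beside the rise of Cdkn1a and the fall of Cdkn1c.

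Of 21 apoptosis regulators 12 rose and 6 fell. Bmf, a BH3-only killer protein, rose by 1.28, Bid, the BH3 protein that caspase-8 cleaves, by 1.00 (from 33.6 ± 0.879 to 67.1 ± 2.05 CPM), and Casp8 itself, on chromosome 1, by 2.24 at 3.20 CPM. Without the shifted regions 8 of 17 rose and 6 fell, and the median went from 0.41 to -0.03. Of 20 p53 targets, 5 rose and 8 fell. Their wild-type levels differed between replicates: Mdm2, the ubiquitin ligase of p53, was at 209, 210, 127 and 126 CPM in wild type and at 134, 134, 124 and 120 CPM in KO, and Plk2 at 88.4, 86.4, 39.1 and 43.9 CPM against 26.0, 21.4, 22.1 and 23.1. The log2 fold change of Mdm2 was -0.39 (adjusted p = 0.025, edgeR), and -0.06 and not called from replicates 3 and 4 alone, while Plk2 was lower in KO than in every wild-type library.

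In the Nodal and TGF-beta pathway, 13 of 24 genes rose and 7 fell. Ligands split, with Bmp4 of the chromosome 14 region up by 2.00 and Nodal down. Among receptors, Acvr1b, a type I activin receptor, stood at 81.1, 82.9, 72.0 and 73.0 CPM in KO and at 28.0, 28.4, 26.3 and 26.3 CPM in wild type (1.5, SE 0.048, adjusted p = 1.5e-14, edgeR), beside the rise of Tgfbr2. The inhibitor Smad7 rose by 1.12, and the BMP target Id1 fell by 1.58. Of 15 LIF and STAT3 genes 10 rose and 3 fell, with Lifr, the LIF receptor, higher by 1.00 (from 76.5 ± 6.36 to 153 ± 7.99 CPM). Of 20 Wnt genes 12 rose and 5 fell: the co-receptor gene Lrp5 rose by 1.25, and the target gene Sp5 fell from 3.26 ± 0.508 to 0.392 ± 0.164 CPM. Of 23 FGF and ERK genes 9 rose and 10 fell, among the latter Fgfr2, a receptor of primitive endoderm, by 2.65 and Dusp4, an ERK phosphatase, by 2.15. Of 19 Hippo genes 7 rose and 9 fell: Wwtr1, the coactivator TAZ, rose by 1.2, while Ccn2, an output of the pathway, fell by 1.69.

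Adhesion genes were divided, with 9 of 23 higher and 12 lower. Fn1, fibronectin, on chromosome 1, rose from 616 ± 29.4 to 1590 ± 93.5 CPM, and its receptor subunit Itga5 rose as given above. Cdh1, E-cadherin, stood at 422, 427, 424 and 434 CPM in KO and at 300, 305, 330 and 346 CPM in wild type, a rise of 0.41 (SE 0.043, adjusted p = 9e-08, edgeR). Zeb2, a repressor of E-cadherin and a known target of the miR-200 family, fell from 2.29 ± 0.179 to 0.512 ± 0.142 CPM.

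Read per transcript, 11377 of 63391 autosomal transcripts were higher (17.9%) and 10882 lower (17.2%). In 402 of 2603 genes with at least 2 called transcripts, each at least 10% of the gene's TPM in a group, transcripts went in opposite directions (15.4%), and 115 of the 402 were not called as a gene. Lig1, DNA ligase I, was not called as a whole (0.09, adjusted p = 0.073, edgeR), though it was in 5 alternative fits. Its main transcript Lig1-201 was higher, at 141 ± 5.08 TPM in KO and 105 ± 7.69 in wild type, while Lig1-211, with an upstream start, stood at 0.221 ± 0.171 TPM against 16.7 ± 2.22. Clstn3, a synaptic calsyntenin, fell as a gene by 0.65, while its transcript Clstn3-201 rose from 5.67 ± 0.567 to 13.8 ± 0.611 TPM and Clstn3-202 fell from 12.4 ± 1.11 to 0.350 ± 0.229. Fbxo34, an F-box gene in the chromosome 14 region, rose as a gene by 1.27, but Fbxo34-206, from an upstream start, fell from 2.67 ± 0.196 to 0.0329 ± 0.0657 TPM. Slc9a3r2, a scaffold of membrane transporters, used Slc9a3r2-205 in KO at 2.04 ± 0.580 TPM, which stood at 0.0253 ± 0.0506 in wild type. The assignment of shared reads to transcripts is the authors' estimate, and its error is not in these values.

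Set beside mTORi culture, most genotype differences kept their direction. Of the 12413 genes called in normal culture, 8303 were called the same way in mTORi culture, 976 the opposite way, and 3134 were not called there. The difference between cultures was itself called for 7675 autosomal genes (42.2%). Lefty2 was higher by 1.54 in normal culture and lower by 2.91 in mTORi culture. Tfap2c went the other way, lower by 1.48 in normal culture and higher by 0.97 in mTORi culture. The amino acid genes were higher in both and more so in mTORi culture, Chac1 by 2.55 and 5.42 and Nupr1 by 1.67 and 5.80. The median of the sterol genes was 0.77 in normal culture and -0.07 in mTORi culture, and the difference between cultures was called for 23 of 24 of them. Pdk1 was higher by 1.33 in normal culture and lower by 0.28 in mTORi culture. Dgcr8 itself was higher by 2.40 and 1.75.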

How the data were processed

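RNA of 16 libraries, 4 per genotype and culture, was quantified by the submitters with kallisto on GRCm38, per the submitters' processing notes, and the kallisto version is not given in the sources used here. The deposited tables hold estimated counts and TPM per transcript, both made by the authors. Here the estimated counts were summed per gene by GENCODE M21 to 35968 genes and rounded to whole numbers. Of 118489 transcripts, 1761 were not matched and were left out, 0.656 to 0.712% of the counts. No long non-coding RNA was analysed here, and a few genes are not reported here. TPM was used only to describe levels of transcripts.

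Genes were kept with filterByExpr at a minimum count of 10 and scaled by TMM. All 16 libraries were fitted together by edgeR 4.0.16 (R 4.3.3), so that they share 1 estimate of the spread, and the genotypes were compared within normal culture by its quasi-likelihood test, with Benjamini-Hochberg adjustment over all genes tested. A gene was called at an adjusted p under 0.05. CPM are TMM-scaled, with SD over 4 libraries. DESeq2 1.42.0, other filters and scalings, and fits without each library were alternatives. Library measures were compared by two-sided exact permutation tests. The fit was tested on simulated data in which few genes differed and no replicate sets were built in. That setting is unlike these libraries, so the test does not check the scaling or the calls here. Totals of 88400000 to 110000000 counts per library limit the precision of genes with few counts.

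The members and lists were chosen with earlier results of these data known. Genes were named by a rule that took the 12 largest changes each way where log2 CPM averaged 3 or more, and up to 4 per list. Other genes named were chosen after their values were seen, and so was that same floor for transcripts in opposite directions.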

Additional observations from a re-analysis of the deposited data

Results flagged for a closer look

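Of the genes named above, 82 had a genotype difference that itself differed between the cultures. Each value is the signed log2 fold change (KO over wild type) in normal culture minus that in mTORi culture, by edgeR's interaction term, so that its sign does not say in which culture the genotypes lay further apart. Zscan4c, which was lower in KO in both, has a positive value because it was further down in mTORi culture, and Sfmbt2 a negative one because it was further down in normal culture. Positive values were 4.45 for Lefty2, 2.59 for Zscan4c, 2.19 for Lef1, 2.06 for Zscan4f, 1.61 for Pdk1, 1.55 for Ccne1, 1.53 for Rtl1, 1.46 for Rhoc and 1.3 for Dnmt3a. Next came 1.23 for Ccnd2, 1.17 for Casp8, 1.13 for Myc, 1.11 for Bmf, 1.04 for Igf2bp3, 1.03 for Sox7, 1.03 for Tgfbr2 and 1.01 for Bmp4. Then followed 0.97 for Acaca, 0.82 for Ago1, 0.76 for Smad7, 0.75 for Mov10, 0.73 for Gja1, 0.72 for Uhrf1, 0.66 for Dgcr8 and 0.65 for Bid. Differences further down were 0.65 for Hmgcs1, 0.63 for Pdgfrb, 0.62 for Hormad1, 0.6 for E2f1, 0.54 for Khsrp, 0.52 for Fn1, 0.48 for Ldhb, 0.45 for Wwtr1 and 0.42 for Klf4. Smaller ones were 0.42 for Lin28b, 0.42 for Rec8, 0.41 for Mcm7, 0.4 for Arid3a, 0.38 for Tnrc6a, 0.36 for Txnip, 0.35 for Drosha, 0.3 for Cdkn1b and 0.3 for Fbxo34. The smallest were 0.24 for Hk2, 0.24 for Mcm6, 0.23 for Lifr and 0.17 for Lrp5.

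Negative values were -4.13 for Nupr1, -2.87 for Chac1, -2.5 for Aldh1l2, -2.46 for Tfap2c, -1.9 for Sfmbt2, -1.89 for Trib3, -1.76 for Stc2, -1.71 for Igf2 and -1.45 for Dab2. After these came -1.29 for Zic2, -1.27 for Slc28a1, -1.25 for Phgdh, -1.24 for Sp5, -1.22 for Calcoco2, -1.21 for Fgfr2, -1.07 for Mycn, -1.03 for Gata3 and -1.01 for Dazl. They were followed by -1.0 for Dnmt3l, -0.99 for Fbxo15, -0.97 for Efnb2, -0.96 for Mef2b, -0.95 for Pck2, -0.94 for Eif4g3, -0.92 for Grb10, -0.89 for Plk2 and -0.7 for Rpl10l. Further differences were -0.7 for Ttn, -0.65 for Usp17la, -0.64 for Atf4, -0.63 for Mdm2, -0.62 for Dusp4, -0.44 for Asns, -0.41 for Nanog and -0.26 for Nodal.

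Single libraries stood apart from the other 3 of their group in 7 of 260 groups of 4 values, where chance gives about 1 in 20. In KO the lowest CPM did so for Cdk1, at 89.15, for Tbx3, at 277.6, for Usp17la, at 0.4274, and for Zeb2, at 0.2988, and the highest for Plagl1, at 0.1349. In wild type the highest CPM of Rec8, 4.163, and the lowest number of genes detected, 23400, were the others.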

How the results depend on the processing

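Of 2375 alternative values of the 125 genes named, 2336 kept their direction and side of the threshold. Those that turned direction were not called in the report: Atf4 to -0.015 with a minimum count of 50, to -0.064 from replicates 1 and 2 alone and to between -0.011 and 0.08 without single libraries; Ccnd2 to 0.088 from replicates 3 and 4 alone and to between -0.165 and 0.058 without single libraries; Lig1 to -0.003 and Rbl2 to 0.149 from replicates 3 and 4 alone. Autosomal genes called lower by at least 1 were 1473 with a minimum count of 50. The median log2 fold change of chromosome 1, whole, was 0.651 by DESeq2, 0.65 with DESeq2 size factors, 0.654 on length-scaled TPM, 0.619 with a minimum count of 50, 0.69 with no filter, 0.655 from the 8 libraries of normal culture, 0.637 with pseudogenes left out, 0.675 from replicates 1 and 2 alone and 0.651 to 0.673 without single libraries. The median log2 fold change of chromosome 10, 50 to 70 Mb, was -0.843, -0.843, -0.84, -0.874, -0.804, -0.839 and -0.857 in the first 7 of these, -0.784 from replicates 3 and 4 alone and -0.84 to -0.794 without single libraries. The median log2 fold change of chromosome 14, 40 to 60 Mb, was 0.88 with a minimum count of 50, 0.895 from replicates 3 and 4 alone and 0.89 to 0.946 without single libraries. The median log2 fold change of chromosome 6, 80 to 100 Mb, was -0.85 by DESeq2, -0.881 with a minimum count of 50, -0.81 with no filter, -0.863 without pseudogenes, -0.878 from replicates 3 and 4 alone and -0.85 to -0.826 without single libraries. List medians that turned were CDK inhibitors, 0.134 from replicates 3 and 4 alone and -0.238 to 0.041 without single libraries; FGF, 0.035 from the same; apoptosis, -0.026, and respiratory chain, -0.024, without the shifted regions; feeder markers, 0.159 on length-scaled TPM, 0.658 with a minimum count of 50 and 0.12 from replicates 1 and 2 alone; and the median log2 fold change of list neuroectoderm, 0.117, 0.073 and 0.007 with a minimum count of 50, from replicates 1 and 2 alone and without the shifted regions, and -0.301 to 0.159 without single libraries. Leaving out the shifted regions was chosen after seeing the data, and the causes were not tested.

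Same-numbered KO and wild-type libraries had correlations of -0.045, 0.241, 0.063 and 0.238 in their deviations, so the numbers were not taken to pair the samples, and not every library correlated best with its own number. Across numbers, KO replicate 2 had 0.274 and -0.293 with wild-type replicates 1 and 4, and KO replicate 4 had -0.255 and 0.238. Within replicates 1 and 2, and within 3 and 4, the correlations were -0.045 to 0.274. Between these sets they were -0.293 to 0.014. The deviations thus partly followed the sets in both genotypes, and the main fit held no term for them. With the replicate block, autosomal genes called higher were 5863, autosomal genes called lower 5560, and the chromosome 1 median 0.656.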
